A study of Mus musculus with 8 samples.

Results

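The 10 genes described here encode the D cyclins (Ccnd1, Ccnd2, Ccnd3), the E cyclins (Ccne1, Ccne2), the kinases they activate (Cdk2, Cdk4, Cdk6) and the Cip/Kip inhibitors Cdkn1b and Cdkn1c. They were chosen by name for their place in the G1 phase, with Cdkn1a set apart, and all 10 were found among the 19055 genes of the deposited table. All 10 passed a filter of at least 10 normalized reads in at least 3 livers. The livers were taken from mice 8 to 9 weeks old, 48 hours after partial hepatectomy, in which most of the liver is removed. There were 5 livers of the genotype URI(+/D)Hep, in which URI had been deleted in hepatocytes with the serum albumin-creERT2 line, and 3 livers of wild-type littermates, URI(+/+)Hep. Tamoxifen, which activates this form of Cre, was given to the mice for 1 week, and the treatment is stated for both groups. The notation +/D keeps a wild-type allele beside the D allele, so that these livers model a partial loss, and only in cells that use the albumin sequences. Whole liver was sequenced from the 3′ ends of polyadenylated RNA, with other cell types included.

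These genes act at the step by which a resting cell enters the cell cycle. D cyclins accumulate when a resting cell receives growth signals, bind CDK4 or CDK6 and start to phosphorylate the retinoblastoma protein, which releases E2F factors. E2F in turn raises the E cyclins, which with CDK2 complete that phosphorylation and start DNA replication. The Cip/Kip proteins bind cyclin-kinase complexes and hold CDK2 inactive, while they can also help D cyclins to assemble with their kinases. In the mouse, most hepatocytes rest in the adult liver and re-enter the cycle after partial hepatectomy, with cyclin D1 known as a main driver of that step.

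The recovered depth was 4294494 to 4800694 reads in URI(+/D)Hep livers and 3838674 to 4337966 reads in URI(+/+)Hep livers. Uri1, the targeted gene, had 328, 398, 437, 354 and 401 normalized reads in URI(+/D)Hep 1 to 5, against 468, 374 and 310.0 in URI(+/+)Hep 1 to 3. These ranges overlapped fully, and a 3′ tag outside the deleted part need not show the deletion, so the groups are named by their labels. Xist, an RNA made by the inactive X chromosome, stood at 1217 to 2357 normalized reads in all 5 URI(+/D)Hep livers, against 9.59, 2.95 and 1298 in URI(+/+)Hep 1 to 3. The summed reads of 4 Y-linked genes were 3.54, 786, 1002, 798 and 859 in URI(+/D)Hep 1 to 5, against 1558, 1312 and 569 in URI(+/+)Hep 1 to 3. URI(+/D)Hep 2 to 5 and URI(+/+)Hep 3 thus held both kinds of RNA, a mixture not known from a single male or female liver. The sexes of the animals, and whether animals were pooled, are not given in the labels used here, and sex and genotype cannot be told apart where URI(+/+)Hep 1 and 2 carry a result. The 8 hepatocyte markers summed to 44729 to 55587 normalized reads in URI(+/D)Hep livers and to 44181 to 73255 in URI(+/+)Hep livers, with none at 0. The highest sum, in URI(+/+)Hep 1, held 43487 normalized reads of Fgb. Of the 8 markers, 2 had ranges apart (13.4% of all genes tested), both higher in URI(+/D)Hep livers. These were Cps1, at 2709 to 3682 against 1077 to 1880, and Apob, at 2942 to 4756 against 2071 to 2570 (limma adjusted p = 0.108 and 0.122). The 10 endothelial markers summed to 2737 to 3164 normalized reads in URI(+/D)Hep livers and to 2046 to 2579 in URI(+/+)Hep livers, with none at 0 in any liver. The B, T and NK cell markers, of which 10 of 12 were in the table, summed to 317 to 492 and to 109 to 294 in these groups, with Pax5, Cd3e, Cd3g and Nkg7 at 0 in some livers. Most of each sum was Ptprc, at 190 to 326 and 93.5 to 215 normalized reads in these groups, whose own ranges overlapped. Of the 10 markers 5 stayed under 20 in every liver. The endothelial sums and the B, T and NK cell sums did not overlap between the groups. Of single markers, 3 of 10 endothelial and 1 of 5 tested B, T and NK cell markers had ranges apart (13.4% of all genes tested). All of these were higher in URI(+/D)Hep livers. The part of other cells in the results below was not tested. The sums that overlapped were 5139 to 6508 and 4837 to 6383 for macrophage markers, 1699 to 1965 and 1656 to 1885 for stellate markers, and 233 to 1169 and 254 to 1659 for cholangiocyte markers, in URI(+/D)Hep and URI(+/+)Hep livers. The highest cholangiocyte sums, in URI(+/+)Hep 1 and URI(+/D)Hep 5, were made up of different genes, as given below. No marker of these cell types was called by limma or edgeR. DESeq2 on the recovered reads called 2 of 8 hepatocyte, 2 of 10 endothelial and 2 of 4 tested cholangiocyte markers, and 0 of the others. Of all genes tested it called 1.71% higher and 2.47% lower. In whole tissue, fewer cells of a type and less RNA per cell cannot be told apart.

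None of the 10 G1 genes passed the test between the genotypes. With limma on log2(value + 1), adjusted over 13704 genes tested, 0 were called higher (0% of all genes tested were) and 0 were called lower (0.0146% of all genes tested were). The smallest adjusted p among them was 0.244 and the largest 0.833. At an unadjusted p under 0.05 there was 1, Ccnd3, which was lower, against 17.7% of all genes tested (8.35% higher and 9.33% lower). edgeR on the recovered reads called 0 of the 10 (0% of all genes higher and 0.0219% lower), as did DESeq2 (1.71% of all genes higher and 2.47% lower). The fold change was positive for 5 of the genes (49.8% of all genes tested) and negative for 5 (50.2%), with a median of 0.12 on the log2 scale against -0.0019 over all genes tested. The ranges of the groups overlapped for all 10, while 13.4% of the genes tested had ranges apart (6.13% higher and 7.3% lower). With 8 livers, an exact permutation of a single value can give a p no smaller than 0.0179, and the 10 genes had exact p-values between 0.0536 and 0.696 (two-sided).

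**Figure D1:**
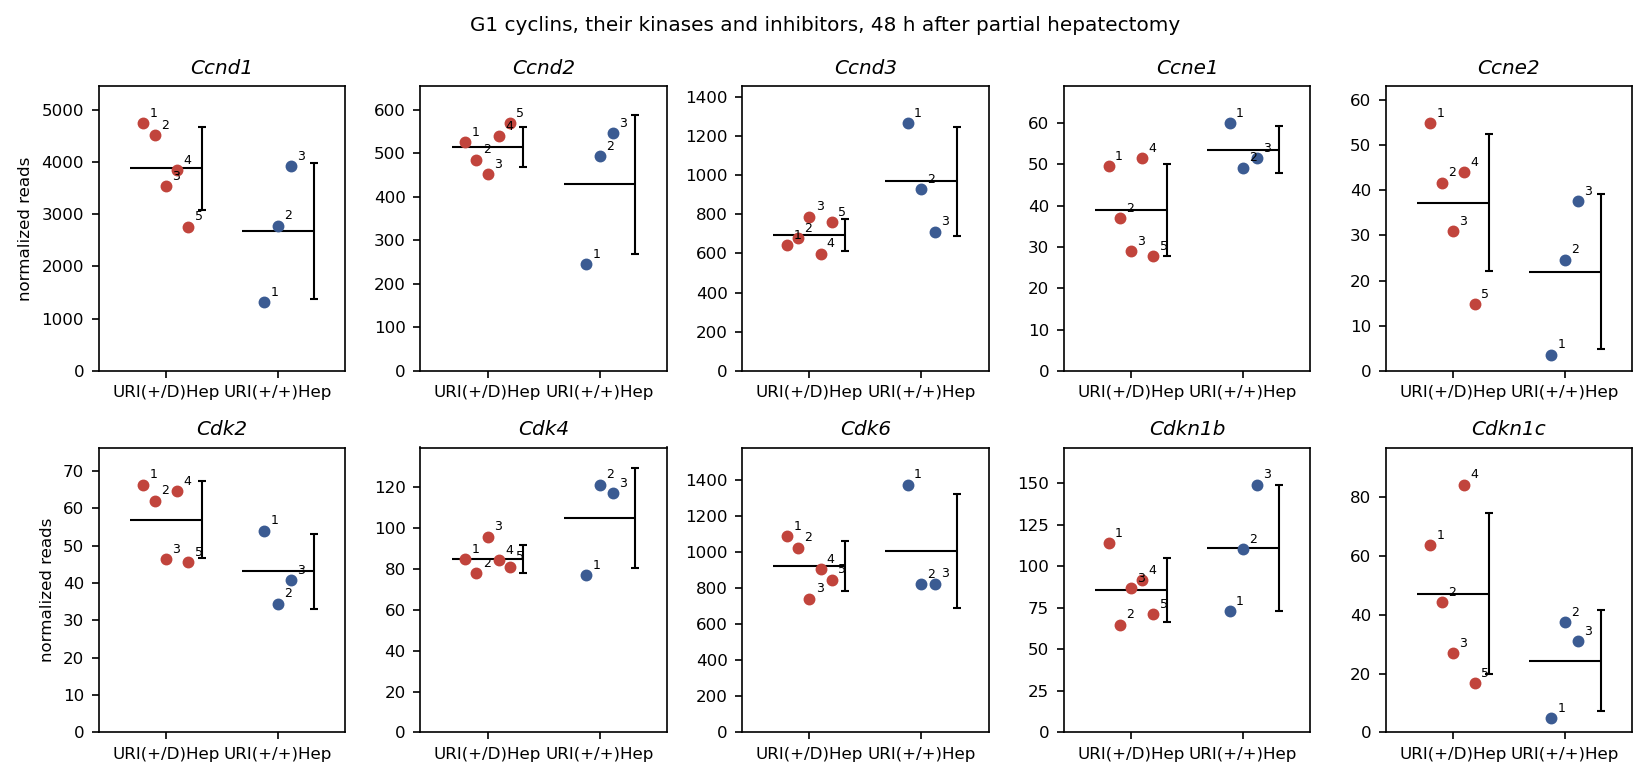
Normalized reads of each gene (y axis, from 0) in the 5 URI(+/D)Hep livers (red, left) and the 3 URI(+/+)Hep livers (blue, right), with replicate numbers beside the points, the mean as a line and the SD as a bar. The groups overlap in every panel, and URI(+/+)Hep 1 is the lowest or the highest of its group in all 10. In a group of 3 livers only the middle liver is neither, and the share over all genes was not counted.

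Among the D cyclins, Ccnd1 had 4742, 4519, 3535, 3842 and 2760.3 normalized reads in URI(+/D)Hep 1 to 5, against 1317, 2779 and 3914 in URI(+/+)Hep 1 to 3. The lowest liver was URI(+/+)Hep 1, the highest were URI(+/D)Hep 1 and 2, and the remaining livers of both groups lay among each other. The means were 3879.8 ± 795 in URI(+/D)Hep livers and 2669.7 ± 1302 in URI(+/+)Hep livers (SD, n = 5 and 3). The difference was 0.65 on the log2 scale (SE 0.32; adjusted p by limma = 0.33, two-sided exact permutation p = 0.161), with a 95% interval from 0.95- to 2.60-fold of the wild-type level. Without URI(+/+)Hep 1 the log2 fold change was 0.21, and without URI(+/+)Hep 3 it was 0.99.

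Ccnd2, whose product shares CDK4 and CDK6 with cyclin D1, had 527, 486, 453, 539.6 and 569.7 normalized reads in URI(+/D)Hep 1 to 5, against 246, 494 and 546 in URI(+/+)Hep 1 to 3. Apart from URI(+/+)Hep 1 all livers fell in a narrow band. On the log2 scale the groups differed by 0.34 (SE 0.24; adjusted p by limma = 0.479), by -0.017 without URI(+/+)Hep 1 and by 0.56 without URI(+/+)Hep 3.

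Ccnd3, the third D cyclin, ran in the other direction. It had 642, 678, 788, 599 and 761 normalized reads in URI(+/D)Hep 1 to 5, against 1264, 929 and 710.2 in URI(+/+)Hep 1 to 3. In 3 of 5 URI(+/D)Hep livers it lay below every URI(+/+)Hep liver, and URI(+/+)Hep 3 lay within the URI(+/D)Hep range. The means were 693 ± 79.6 in URI(+/D)Hep livers and 968 ± 279 in URI(+/+)Hep livers (SD, n = 5 and 3). This gave -0.45 on the log2 scale (SE 0.18; adjusted p by limma = 0.244, exact permutation p = 0.0536), a 95% interval from 0.55- to 0.97-fold. It was -0.24 without URI(+/+)Hep 1 and -0.65 without URI(+/+)Hep 3.

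The make-up of the D cyclin reads, which does not depend on the size factors, set URI(+/+)Hep 1 apart. Ccnd1 took 80.2%, 79.5%, 74.0%, 77.1% and 67.5% of the D cyclin reads in URI(+/D)Hep 1 to 5, against 46.6%, 66.1% and 75.7% in URI(+/+)Hep 1 to 3. The exact 95% binomial interval, which covers counting error only, ran from 44.6% to 48.6% in URI(+/+)Hep 1, where 2357 D cyclin reads were counted. Ccnd3 took 10.9% to 18.6% in URI(+/D)Hep livers, against 44.7%, 22.1% and 13.7% in URI(+/+)Hep 1 to 3. The share of Ccnd1 differed by 12.9 percentage points (exact permutation p = 0.0893) and that of Ccnd3 by -12.9 points (exact permutation p = 0.0536). Adjusted over the 4 cyclin shares compared, the values were 0.119 and 0.107. Without URI(+/+)Hep 1 the differences were 4.76 points for Ccnd1 and -3.94 points for Ccnd3, and without URI(+/+)Hep 3 they were 19.3 and -19.4 points.

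**Figure D2:**
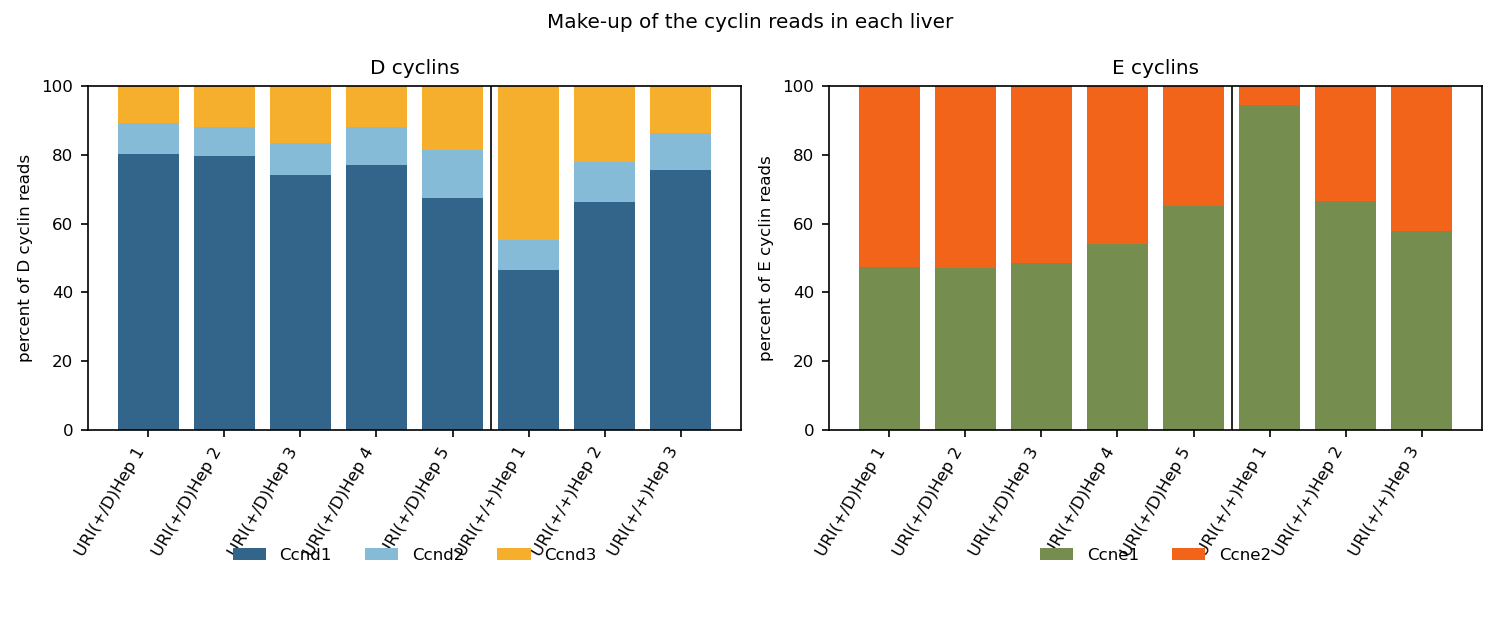
Percent of the D cyclin reads (left) and of the E cyclin reads (right) that each gene took in each liver, URI(+/D)Hep livers left of the line and URI(+/+)Hep livers right of it. Ccnd3 takes 44.7% and Ccne2 5.66% in URI(+/+)Hep 1, the extremes of all 8 livers.

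The E cyclins were counted at low levels and had fold changes of opposite sign, neither past the test. Ccne1 had 49.5, 37.0, 29.0, 51.5 and 27.7 normalized reads in URI(+/D)Hep 1 to 5, against 59.96, 49.2 and 51.5 in URI(+/+)Hep 1 to 3. The 3 wild-type livers were close to each other, and URI(+/D)Hep 2, 3 and 5 lay below all of them. As a log2 fold change this was -0.49 (SE 0.25; adjusted p by limma = 0.338, exact permutation p = 0.143), between -0.60 and -0.38 with each liver left out in turn.

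Ccne2 had 54.8, 41.7, 30.9, 44.0 and 14.8 normalized reads in URI(+/D)Hep 1 to 5, against 3.60, 24.6 and 37.5 in URI(+/+)Hep 1 to 3. The value of URI(+/+)Hep 1 stands for 3 reads, with an exact Poisson interval of 0.742 to 10.5 normalized reads, and the next lowest liver was URI(+/D)Hep 5 with 15 reads. The difference was 1.09 on the log2 scale (SE 0.68; adjusted p by limma = 0.43), 0.16 without URI(+/+)Hep 1 and 1.70 without URI(+/+)Hep 3. Of the E cyclin reads, Ccne2 took 47.6% ± 7.63 in URI(+/D)Hep livers and 27.1% ± 19.0 in URI(+/+)Hep livers (SD, n = 5 and 3). This difference of 20.6 percentage points had an exact permutation p of 0.0357, and of 0.107 adjusted over the 4 cyclin shares. It was 9.86 points without URI(+/+)Hep 1 (exact permutation p = 0.238).

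The kinases spread less than the cyclins, with an SD of log2 values over the 8 livers of 0.26 (Cdk4) to 0.33 (Cdk2). For the cyclins it was 0.34 (Ccnd3) to 1.17 (Ccne2), and the median over all genes tested was 0.31. Cdk2, the partner of the E cyclins, had 66.3, 62.0, 46.4, 64.6 and 45.5 normalized reads in URI(+/D)Hep 1 to 5, against 54.0, 34.5 and 40.8 in URI(+/+)Hep 1 to 3. In URI(+/D)Hep 1, 2 and 4 it lay above every wild-type liver. The means were 57.0 ± 10.2 in URI(+/D)Hep livers and 43.1 ± 9.95 in URI(+/+)Hep livers (SD, n = 5 and 3), a log2 difference of 0.40 (SE 0.22; adjusted p by limma = 0.365, exact permutation p = 0.125). Without URI(+/+)Hep 1, the highest wild-type liver, it was 0.57, and without URI(+/+)Hep 2 it was 0.26.

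Ccne1 and Cdk2, which act as a pair, had fold changes of opposite sign. The 250 bases before the start of each gene are shown, as RefSeq gives them on GRCm38.p6, because this family is the usual example of E2F control. Capitals mark matches, on either strand, to the E2F element TTTCCCGC and to the GC box GGGCGG. The Cdk2 sequence lies at chr10:128705052-128705301 on the minus strand and that of Ccne1 at chr7:38107491-38107740 on the minus strand.
Cdk2: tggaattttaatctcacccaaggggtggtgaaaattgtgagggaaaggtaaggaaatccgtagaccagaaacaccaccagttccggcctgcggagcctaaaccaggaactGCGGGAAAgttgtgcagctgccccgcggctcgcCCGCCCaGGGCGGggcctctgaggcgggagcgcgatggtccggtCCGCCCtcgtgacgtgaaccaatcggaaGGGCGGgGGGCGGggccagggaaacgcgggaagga
Ccne1: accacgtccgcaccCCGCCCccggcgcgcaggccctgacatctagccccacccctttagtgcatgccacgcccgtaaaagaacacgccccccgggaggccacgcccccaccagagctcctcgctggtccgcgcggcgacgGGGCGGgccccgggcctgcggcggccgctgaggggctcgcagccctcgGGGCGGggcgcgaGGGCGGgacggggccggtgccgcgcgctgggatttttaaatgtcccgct
The Cdk2 window held 1 E2F match, starting at base -140 from the start, and 5 GC boxes, while the Ccne1 window held 0 and 4. No E2F and GC box matches overlapped. Of 32851 mouse windows of this length 0.895% held the E2F letters and 32.7% a GC box. A window was found for 6 of the 10 genes (Ccnd3, Ccne1, Cdk2, Cdk4, Cdk6 and Cdkn1b), of which 1 held the E2F letters and 5 a GC box. Only the exact letters were searched, so a stretch that differs from them by a base was not counted. A match is a description of letters, and none of these values bears on binding.

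Cdk4 had 84.9, 77.8, 95.7, 84.3 and 81.1 normalized reads in URI(+/D)Hep 1 to 5, against 76.8, 121 and 117 in URI(+/+)Hep 1 to 3. All URI(+/D)Hep livers lay between URI(+/+)Hep 1 and the other wild-type livers. On the log2 scale the groups differed by -0.28 (SE 0.17; adjusted p by limma = 0.433). The difference was -0.49 without URI(+/+)Hep 1, -0.16 without URI(+/+)Hep 2 and -0.19 without URI(+/+)Hep 3. Cdk6, the other partner of the D cyclins, had 1087, 1024, 741, 904 and 847 normalized reads in URI(+/D)Hep 1 to 5, against 1373, 820.2 and 825 in URI(+/+)Hep 1 to 3. URI(+/+)Hep 1 was the highest of all 8 livers and the others overlapped. This gave -0.10 on the log2 scale (SE 0.20; adjusted p by limma = 0.833), 0.15 without URI(+/+)Hep 1 and -0.22 without URI(+/+)Hep 2 or 3.

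The inhibitors also had fold changes of opposite sign. Cdkn1b, which encodes Kip1, had 114, 64.8, 87.0, 91.8 and 71.2 normalized reads in URI(+/D)Hep 1 to 5, against 73.2, 110.3 and 149 in URI(+/+)Hep 1 to 3. The groups overlapped across most of their range, with a log2 difference of -0.34 (SE 0.26; adjusted p by limma = 0.527), -0.60 without URI(+/+)Hep 1 and -0.094 without URI(+/+)Hep 3. Cdkn1c, which encodes Kip2 and is expressed from the maternal allele in the mouse, had 63.6, 44.4, 27.1, 84.3 and 16.8 normalized reads in URI(+/D)Hep 1 to 5, against 4.80, 37.4 and 31.1 in URI(+/+)Hep 1 to 3. URI(+/D)Hep 1, 2 and 4 lay above every wild-type liver, and the value of URI(+/+)Hep 1 stands for 4 reads. As a log2 fold change this was 1.11 (SE 0.70; adjusted p by limma = 0.435), 0.25 without URI(+/+)Hep 1, 1.61 without URI(+/+)Hep 2 and 1.48 without URI(+/+)Hep 3.

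Cdkn1a, the remaining Cip/Kip gene and a target of p53, had 154, 173, 178, 204 and 215 normalized reads in URI(+/D)Hep 1 to 5, against 631, 222 and 163 in URI(+/+)Hep 1 to 3. The difference was -0.63 on the log2 scale (SE 0.37; adjusted p by limma = 0.409), -0.051 without URI(+/+)Hep 1 and -1.02 without URI(+/+)Hep 3.

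The livers differed widely in Mki67. The protein made from Mki67 marks cells in any phase of the cell cycle, while only its RNA was measured here. Mki67 had 469, 333, 268, 586 and 49.5 normalized reads in URI(+/D)Hep 1 to 5, against 24.0, 282 and 468 in URI(+/+)Hep 1 to 3. URI(+/D)Hep 5 and URI(+/+)Hep 1 stood apart, with a gap of 2.41 on the log2 scale to the next liver, while the other 6 spanned 1.13. No correlation over all 8 livers is therefore given. Several of the G1 genes lay far apart in these 2 livers. Ccnd1 had 2760.3 normalized reads in URI(+/D)Hep 5 and 1317 in URI(+/+)Hep 1. Ccnd2 was the highest of all livers in URI(+/D)Hep 5, at 569.7, and the lowest in URI(+/+)Hep 1, at 246. Ccnd3 had 761 and 1264 normalized reads in these livers, Cdk6 847 and 1373, and Cdkn1a 215 and 631, so that URI(+/+)Hep 1 was the highest of all 8 for each of the 3. Ccne2 and Cdkn1c were the lowest of all 8 in these livers, while Cdkn1b was alike, at 71.2 and 73.2. Epcam, a cholangiocyte marker, had 525 normalized reads in URI(+/D)Hep 5, against 7.96 to 29.96 in URI(+/D)Hep 1 to 4 and 15.02 to 28.8 in URI(+/+)Hep livers, and its part in the values of URI(+/D)Hep 5 was not tested.

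**Figure D3:**
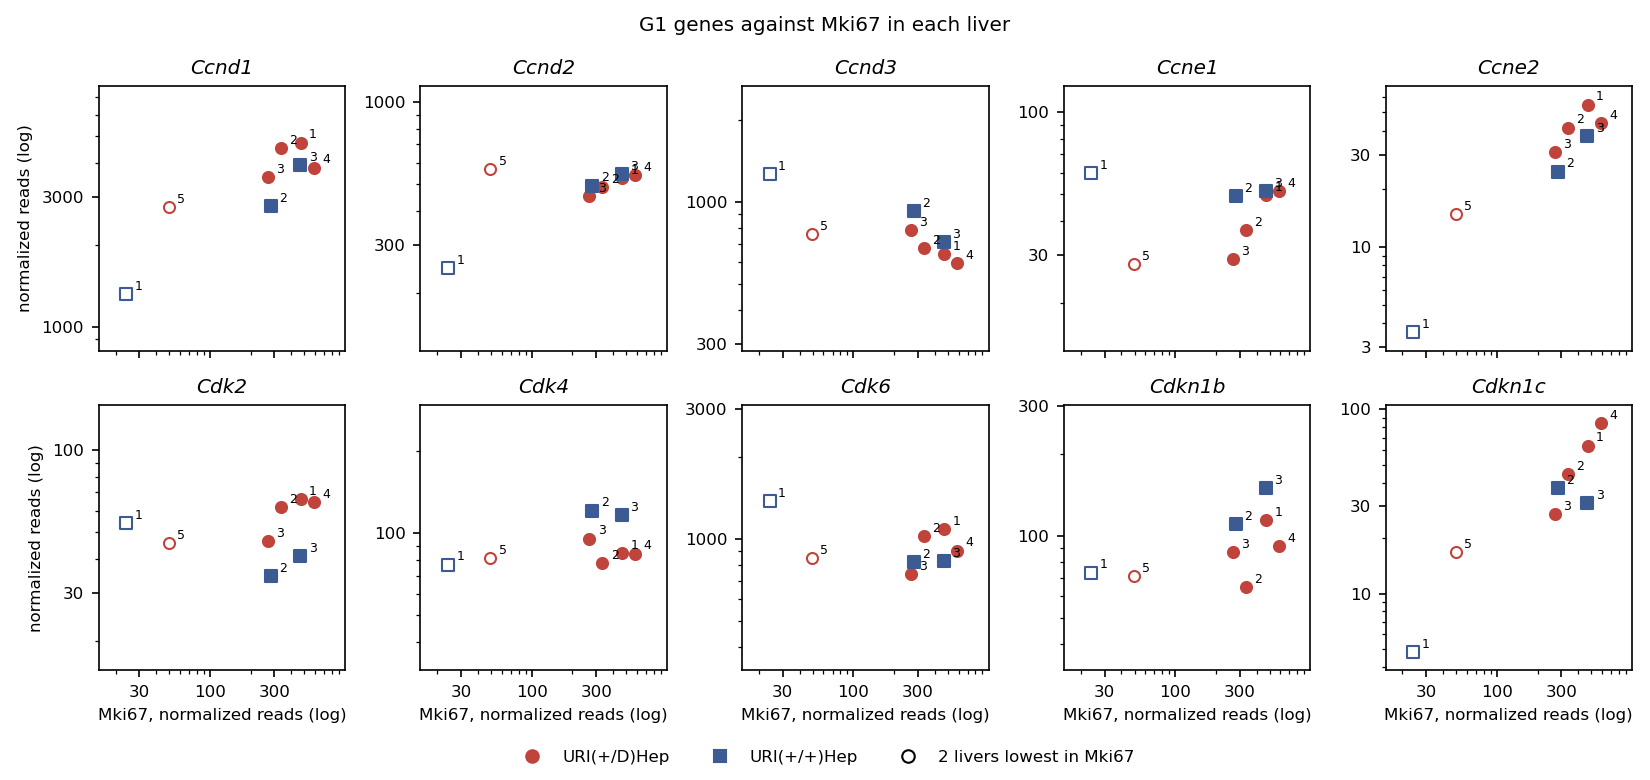
Normalized reads of each gene against those of Mki67 in the same liver, both on log axes, with URI(+/D)Hep livers as red circles and URI(+/+)Hep livers as blue squares. Open symbols are the 2 livers lowest in Mki67. URI(+/D)Hep 5 and URI(+/+)Hep 1 lie close for Cdkn1b and Cdk4 and far apart for Ccnd2.

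Over the other 6 livers, 4 of URI(+/D)Hep and 2 of URI(+/+)Hep, 8 of the 10 genes had a positive Pearson correlation with Mki67 on the log2 scale. Ccnd2 had r = 0.90 (exact permutation p = 0.0306, 0.188 adjusted over the 10 relations) and a Spearman rho of 0.77 (exact permutation p = 0.103, adjusted 0.206). Ccnd3 had r = -0.83 (exact permutation p = 0.0375, adjusted 0.188) and rho = -0.89 (exact permutation p = 0.0333, adjusted 0.146). Among these 6 livers it was lowest in URI(+/D)Hep 4, the highest in Mki67, and highest in URI(+/+)Hep 2 and URI(+/D)Hep 3, the lowest in Mki67. Without URI(+/D)Hep 3 and 4, the livers farthest from the median of Mki67, r was 0.88 for Ccnd2 and -0.76 for Ccnd3 over 4 livers.

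Ccne1, Ccne2 and Cdkn1c had r of 0.70, 0.74 and 0.73, with exact permutation p-values of 0.138, 0.101 and 0.113, all 0.275 when adjusted over the 10 relations. Their Spearman rho was 0.89, 0.83 and 0.83, with exact permutation p-values of 0.0333, 0.0583 and 0.0583, all 0.146 when adjusted. Without the same 2 livers r was 0.41 for Ccne1, 0.76 for Ccne2 and 0.23 for Cdkn1c. The remaining genes had r of 0.51 (Ccnd1), 0.54 (Cdk2), 0.45 (Cdk6), 0.33 (Cdkn1b) and -0.28 (Cdk4), with exact permutation p-values from 0.226 to 0.542. Spearman rho of these genes was 0.54 for Ccnd1, 0.66 for Cdk2, 0.71 for Cdk6, 0.37 for Cdkn1b and -0.43 for Cdk4, with exact permutation p-values from 0.136 to 0.497. Without URI(+/D)Hep 3 and 4 their r was 0.67, 0.41, 0.30, 0.52 and -0.16 in that order.

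Thus 0 of 10 relations passed after adjustment. The number with an unadjusted exact p under 0.05 was 2 by Pearson, 1 positive and 1 negative, against 11.6% of the 13703 other genes tested (6.99% positive and 4.62% negative), and 2 by Spearman. A Pearson r of at least 0.7 in size was found for 4 of 10, against 25.1% of those genes. These are relations across livers of mixed genotype, and no correlation was computed within a group, since neither has at least 6 livers. With the mean of Ccna2, Ccnb1, Ccnb2 and Cdk1 in place of Mki67, Ccnd2 (r = 0.97) and Ccne1 (r = 0.85) passed with an adjusted exact permutation p of 0.0417 each, while r of Cdk4 was 0.049. At an unadjusted exact permutation p under 0.05 these were also the 2 of 10 genes found, against 14.4% of the 13700 genes tested other than those averaged.

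With log2 Mki67 as a covariate in limma, the differences between the genotypes were smaller in size for Ccnd1, Ccnd2, Ccnd3, Ccne2, Cdk6 and Cdkn1c. They were larger for Ccne1, Cdk4 and Cdkn1b, and about the same for Cdk2. This fit kept URI(+/D)Hep 5 and URI(+/+)Hep 1, which lay at least 2.41 below the other livers in log2 Mki67. Its adjustment for Mki67 therefore rests largely on these livers, a single liver of each genotype, which themselves differed by 1.01. For this reason the fit cannot show how the genotypes differ at equal Mki67. The log2 fold change was 0.42 for Ccnd1, 0.58 for Ccne2 and 0.60 for Cdkn1c, and -0.34 for Ccnd3, -0.55 for Ccne1, -0.36 for Cdk4 and -0.48 for Cdkn1b. Of the 10 genes 0 were called, with adjusted p-values from 0.13 (Ccnd3) to 0.935 (Cdk6), although 0.467% of all genes tested were then called higher and 0.766% lower. Without URI(+/D)Hep 5 and URI(+/+)Hep 1, and with no covariate, the log2 fold changes were 0.32, 0.45, 0.55, -0.27, -0.30, -0.47 and -0.54 for the same genes in that order, again with 0 called. When the summed share of the Y-linked genes was the covariate instead, several values changed in size by over 1.5 times. They became smaller for Ccnd1 (0.30), Ccnd2 (0.16), Ccnd3 (-0.26), Ccne2 (0.41) and Cdkn1c (0.55), and larger for Cdkn1b (-0.63). Ccne1 stood at -0.62, Cdk2 at 0.34, Cdk4 at -0.34 and Cdk6 at -0.10 in that fit, with 0 of the 10 genes called. The Y-linked sums of URI(+/+)Hep 1 and 2, at 1558 and 1312, lay above those of all URI(+/D)Hep livers. That fit therefore cannot separate sex from genotype.

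The genes most like the 3 most variable members over the 8 livers were found by the root mean square difference of centred log2 values. Nearest to Ccne2 were Cep112, a centrosomal protein gene (0.19), Tbx3os1, an RNA from the strand opposite Tbx3 (0.21), and Dpf1, of a chromatin remodelling complex (0.21), while Ccne2 itself had an SD of 1.17 over the livers. Nearest to Cdkn1c, with an SD of 1.21, were D630039A03Rik (0.24), Cep112 (0.26) and Ugt1a7c, a glucuronosyltransferase (0.28). Nearest to Ccnd1, with an SD of 0.59, were Aqp11, an aquaporin (0.09), Zfp518b, a zinc finger protein gene (0.11), and Klb, a coreceptor for fibroblast growth factors (0.11). Cep112 had 227, 183, 159, 260.4 and 78.1 normalized reads in URI(+/D)Hep 1 to 5, against 21.6, 138 and 148 in URI(+/+)Hep 1 to 3, the same 2 livers being lowest. Ugt1a7c shares its 3′ exons with other Ugt1a genes and Tbx3os1 overlaps a neighbour, so their levels are uncertain.

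The rest of the pathway was described from lists of named genes. Of the 3 retinoblastoma family genes, which bind E2F factors and hold target genes silent, 0 were called by limma or edgeR. All 3 had a positive fold change, as did 49.8% of all genes tested. For Rbl1 it was 0.38 on the log2 scale (SE 0.43; adjusted p by limma = 0.685), with ranges that overlapped. Rbl2 had 96.3, 87.0, 104, 90.9 and 68.2 normalized reads in URI(+/D)Hep 1 to 5, against 42.0, 50.2 and 62.2 in URI(+/+)Hep 1 to 3, so that the groups did not overlap. On the log2 scale the groups differed by 0.79 (SE 0.19; adjusted p by limma = 0.115, exact permutation p = 0.0179, the smallest possible). DESeq2 on the recovered reads called it higher, with an adjusted p of 0.0233. Rb1, the retinoblastoma gene itself, had 203, 198, 212, 239 and 298 normalized reads in URI(+/D)Hep livers, against 158, 160.5 and 164 in URI(+/+)Hep livers, again without overlap. This gave 0.50 on the log2 scale (SE 0.15; adjusted p by limma = 0.151, exact permutation p = 0.0179). Ranges that do not overlap, higher in URI(+/D)Hep, were found for 6.13% of all genes tested. Leaving out each liver in turn gave log2 fold changes between 0.65 and 0.93 for Rbl2 and between 0.40 and 0.54 for Rb1.

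Of the 10 E2F and DP genes 0 were called by limma, edgeR or DESeq2, with 1 at an unadjusted p under 0.05 (17.7% of all genes tested). Tfdp2, a partner of E2F in DNA binding, stood at 290.1 ± 36.7 in URI(+/D)Hep livers and 226 ± 35.2 in URI(+/+)Hep livers (SD, n = 5 and 3; log2 fold change 0.36, limma adjusted p = 0.24). E2f6, a repressor of the family, stood at 133 ± 14.3 and 162 ± 21.0 in these groups (log2 fold change -0.28, limma adjusted p = 0.321). E2f1, the activator released by cyclin D kinases, had 334, 229, 145, 296 and 47.5 normalized reads in URI(+/D)Hep livers, against 54.0, 197 and 314 in URI(+/+)Hep livers, so that URI(+/D)Hep 5 and URI(+/+)Hep 1 were the 2 lowest livers, as for Mki67.

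Of the 4 INK4 genes, whose products block CDK4 and CDK6, 3 were tested and 0 called by any of the 3 tools, with 0 at an unadjusted p under 0.05. Cdkn2c and Cdkn2d had log2 fold changes of 0.34 and -0.21 (limma adjusted p = 0.814 and 0.822). Of 8 genes that switch the kinases on or off, 0 were called by the 3 tools and 0 had an unadjusted p under 0.05. Cdc25a, a phosphatase that activates CDK2, had a log2 fold change of 0.38 (limma adjusted p = 0.351), and Cdk7, of the CDK-activating kinase, one of -0.30 (limma adjusted p = 0.401). Without URI(+/+)Hep 1 the value was 0.22 for Cdc25a and -0.069 for Cdk7, while Cdk7 was -0.48 without URI(+/+)Hep 3.

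Of 12 genes that act in the turnover of G1 cyclins and Kip1, 0 were called by the 3 tools and 2 had an unadjusted p under 0.05, a share near the 17.7% of all genes tested. Both are given here as the genes of smallest p on the list. Fbxo31, a ubiquitin ligase subunit that targets cyclin D1, had 59.2, 89.8, 170.1, 79.6 and 164 normalized reads in URI(+/D)Hep 1 to 5, against 275, 219 and 138 in URI(+/+)Hep 1 to 3. As a log2 fold change this was -0.96 (SE 0.38; adjusted p by limma = 0.237), with the ranges overlapping through URI(+/+)Hep 3. It was -0.48 with the Y-linked share in the fit. Cops5, a subunit of the COP9 signalosome, had a log2 fold change of -0.23 (limma adjusted p = 0.275). Of 9 genes of S phase and mitosis, 7 were tested, 0 called by the 3 tools and 0 at an unadjusted p under 0.05, with log2 fold changes of 0.68 for Ccnb2, a mitotic cyclin, and -0.18 for Cks2, a subunit of CDK complexes (limma adjusted p = 0.715 and 0.724).

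**Figure D4:**
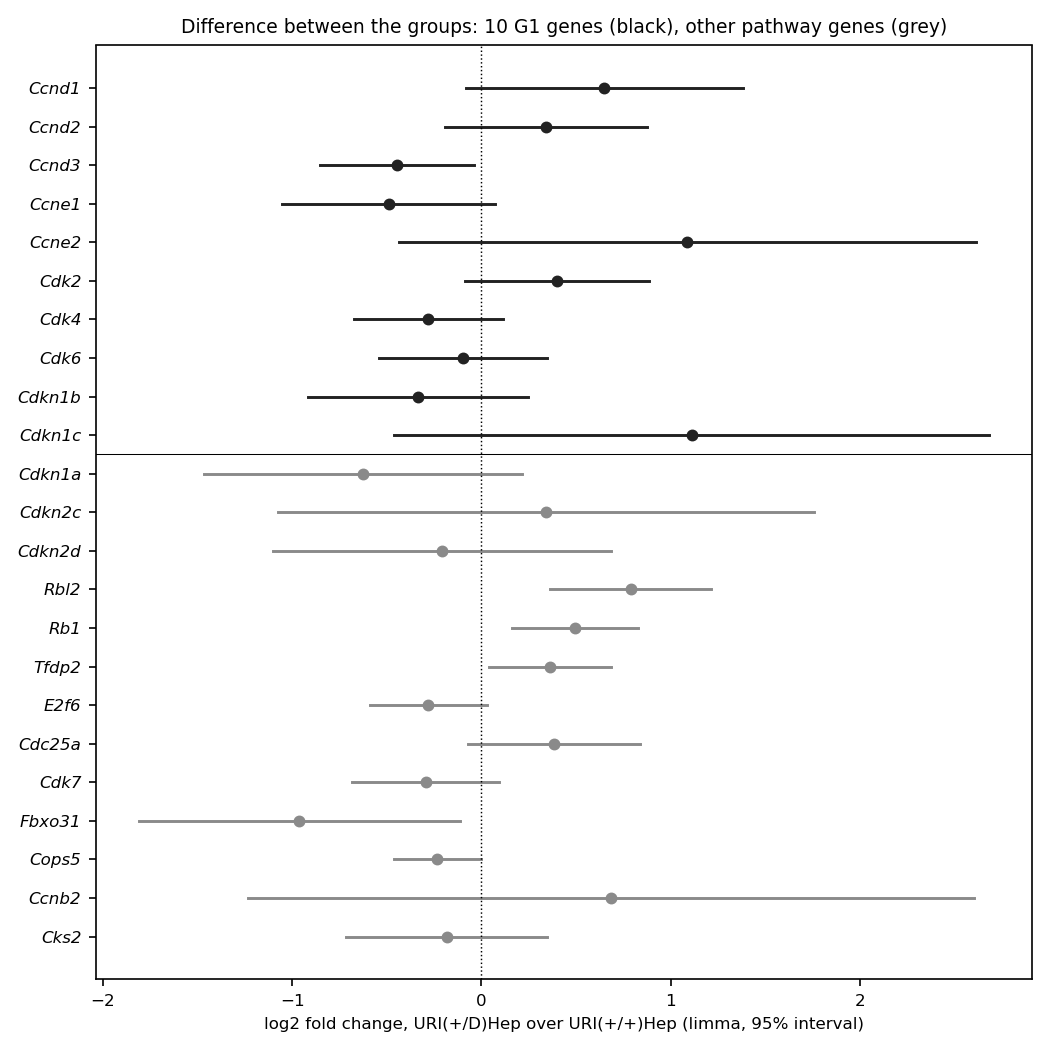
Log2 fold change of URI(+/D)Hep over URI(+/+)Hep livers for the 10 G1 genes (black, above the line) and other genes of the pathway (grey, below it), with 95% intervals from limma. Of the 10 intervals 9 include 0, the exception being Ccnd3, and the intervals of Ccne2 and Cdkn1c are the widest of the 10.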

How the data were processed

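RNA was sequenced from 8 livers with a 3′ kit using oligo-dT priming and a random primer that carried a molecular identifier of 6 nt, per the labels' protocols. Tools listed in the submitters' processing notes are bcl2fastq, featureCounts and DESeq2, with GRCm39 as the build. For the aligner, the annotation, all versions and the handling of identifiers, the sources used here state nothing. The deposited table holds normalized signal: the authors scaled each library's read counts by its size factor. Whole reads were recovered by taking the smallest value above 0 in a library as 1 read (100% of values whole within 1e-06). That value is close to 1 in URI(+/D)Hep 5 (0.989) and in URI(+/+)Hep 2 (0.985), which leaves the recovery less certain there. The count tests on 7 libraries left out URI(+/D)Hep 5 only. Genes with under 10 reads in all are absent.

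Values were tested as log2(value + 1), which understates changes of low genes, with limma 3.58.1 in R 4.3.3 (mean-variance trend, Benjamini-Hochberg over 13704 genes with at least 10 in at least 3 libraries, threshold 0.05), with edgeR 4.0.16 and DESeq2 1.42.0 on recovered reads as alternatives. Tests were checked on simulated data with planted changes and the same dispersion for every gene. That check does not show how they perform at the spread of these livers. Correlations used all 720 pairings (scipy 1.17.1). The members, lists and the rule for genes named (all members, called or 2 lowest p per list, 3 nearest to each of the 3 most variable) were chosen with earlier results of these data known, and the cyclin shares were added after seeing the values. Uri1, Cdkn1a, Mki67, E2f1, Rbl1, Xist and single cell type markers (Epcam, Cftr, Sox9, Spp1, Fgb, Cps1, Apob and Ptprc) are given as context. E2f1, Rbl1 and these markers were chosen after their values were seen. Replicates are separate samples by their labels, which do not say that they are separate animals, so that p-values measure the spread between samples. Levels are compared between livers, not between genes. Depth limits low genes: 3 reads correspond to 2.65 to 3.60 normalized reads.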

Additional observations from a re-analysis of the deposited data

Results flagged for a closer look

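Of 36 values looked at within the 5 URI(+/D)Hep livers, 2 had a liver far from its group, and chance flags about 1 in 20 such groups. Cops5, a subunit of the COP9 signalosome, had 476 normalized reads in URI(+/D)Hep 3, above the other 4 livers of that group. The 6 cholangiocyte markers summed to 1169 normalized reads in URI(+/D)Hep 5, against 233 to 375 in the other 4 livers of its group and 254 to 1659 in URI(+/+)Hep livers. Different genes made up the highest sums. Epcam and Cftr had 525 and 283 normalized reads in URI(+/D)Hep 5, against 28.8 and 15.6 in URI(+/+)Hep 1. Sox9 and Spp1 had 152 and 122 normalized reads in URI(+/D)Hep 5, against 1141 and 458 in URI(+/+)Hep 1. They were also high in URI(+/+)Hep 2, at 631 and 377, but not in URI(+/+)Hep 3, at 121 and 97.6. Across the URI(+/D)Hep livers Sox9 ran from 108 to 175 and Spp1 from 90.9 to 144. No value of the 10 G1 genes was far from its group by this measure, and groups of 3 livers were not tested.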

How the results depend on the processing

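Over 24 alternatives to the limma fit, 0 of the 10 G1 genes were called in either direction. Of 237 alternative log2 fold changes of these genes, 232 kept their sign and side of the threshold and 5 turned: Cdk6 to 0.13 with array quality weights, and Ccnd2 to -0.054 and Cdk6 to 0.18 without URI(+/+)Hep 1 and URI(+/D)Hep 5 together, beside Ccnd2 and Cdk6 without URI(+/+)Hep 1 alone. With 1 liver left out in turn, log2 fold changes ran from -0.017 to 0.56 (Ccnd2), -0.22 to 0.15 (Cdk6), -0.47 to 1.64 (Mki67), -0.27 to 0.76 (Cdkn2c), -0.57 to 0.069 (Cdkn2d), -0.39 to 1.34 (Ccnb2) and -0.34 to 0.018 (Cks2), and the share of Ccnd2 in D cyclin reads from -0.894 to 0.714 percentage points. Cdkn2c also turned to -0.12 with Mki67 as a covariate, and with the Y-linked share as one, besides the shifts in size given above, Mki67, Cdkn2c and Ccnb2 turned to -0.089, -0.21 and -0.045. Over all genes tested, limma called 0 higher and 2 lower. Genes called higher numbered 1 with a mean of at least 50, with array weights and without URI(+/+)Hep 1 and URI(+/D)Hep 5, 64 with Mki67 as a covariate, 234 by DESeq2, 126 by DESeq2 on the 7 libraries other than URI(+/D)Hep 5, and 0 to 10 with 1 liver left out. Genes called lower numbered 1 with quantile normalization, 105 with Mki67 as a covariate, 339 by DESeq2, 257 by DESeq2 on 7 libraries, and 0 without the trend, with the replicate block, when fitted beside the Y-linked share, without URI(+/+)Hep 1 and URI(+/D)Hep 5, and by edgeR on 7 libraries. With 1 liver left out the number was 0 to 19, the highest without URI(+/+)Hep 3. The cause of these shifts was not tested. Rbl2 was called by DESeq2 on 7 libraries too (log2 fold change 0.88, adjusted p = 0.0153), and its adjusted p over all settings was 0.0153 to 0.616. Of the relations to Mki67, 0 passed with a pseudocount of 8, on the linear scale, with TMM recentring, by Spearman or with Top2a, and 2 passed with the mean of 4 mitotic genes, where r of Cdk4 turned to 0.049. Relations over fewer than 6 livers were not tested. Same-numbered livers did not deviate together (correlations of -0.40, -0.043 and -0.27 for numbers 1, 2 and 3). Livers of unlike number ranged from -0.54 to 0.54, so these values cannot show whether the numbers mark a shared litter or day. A mean of at least 50 left no value for Ccne1, Ccne2 and Cdkn1c.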
